A study of Homo sapiens with 10 samples.

Results

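The 42 genes described here encode hydrolases of the lysosome, the cofactors and lipid carriers that serve them, proteins of the lysosomal membrane, genes of the proton pump, and the transcription factors TFEB, TFE3 and MITF. They were picked out by gene name among the 58735 genes of the count table, with no threshold on their values, but the list was drawn up with earlier results of these data known. All 42 were found, and 39 of them passed a filter on low counts and could be tested. The study sequenced poly(A)-selected RNA from a single human line, CH157-MN, established from a meningioma. There were 5 libraries of cells given phosphate-buffered saline (PBS) and 5 of cells given 100 nM of a humanised antibody against the somatostatin receptor SSTR2 that carries the tubulin poison MMAF (hSSTR2-MMAF ADC, here ADC). The treated cells were collected 3 days after the conjugate was added, and no time is stated for the PBS cells. No other antibody, free drug or cell line was among the 10 libraries, and the labels do not say whether replicates came from separate cultures, so every p-value measures the spread between these libraries, which may be technical.

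Lysosomes are acidic organelles in which proteins, glycans and lipids delivered by endocytosis and autophagy are broken down. The V-ATPase pumps protons into the lumen, most soluble hydrolases reach it through mannose 6-phosphate tags, and heavily glycosylated membrane proteins such as LAMP1 line its wall. An antibody-drug conjugate that is taken up through its receptor is carried to the same compartment, where proteases release the payload, either by cutting a peptide linker (cathepsin B is the textbook example) or by digesting the antibody itself. The linker of this conjugate is not given in the sources used here.

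The libraries held 28262162 to 36463724 counts assigned to genes, and a count of 3 corresponded to 0.0820 to 0.106 CPM, the unit used here, in which a gene's count is scaled to a common library total with TMM factors. The 42 genes took 0.445% to 0.457% of all counts in the PBS libraries and 0.460% to 0.473% in the ADC libraries, which did not overlap. With TMM scaling, as used for all other values here, their summed level was 4468 to 4672 CPM in PBS and 4533 to 4748 CPM in ADC, and these ranges overlapped. Of 7 meningioma markers, vimentin (VIM) stood at a mean of 3398 CPM in PBS, while the progesterone receptor PGR was at 0 in all 10 libraries and PTGDS and CDH1 held at most 1 count. The conjugate's target SSTR2 itself held 3 to 22 counts per PBS library and 10 to 20 per ADC library. Of the 7 meningioma markers 3 could be tested, and none was called with edgeR. All 3 had positive log2 fold changes (0.058 to 1.02), 2 of them at an unadjusted p under 0.05. With scaling to library size alone 1 was called higher. The summed level of the 7 markers was 3398 CPM in PBS, nearly all of it VIM. The tested markers other than VIM therefore stood at few counts, and no change of the markers is read from them. Leukocytes, melanocytes and osteoclasts are rich in cathepsins or MITF, so their markers were read too. Of 14 leukocyte markers 7 were at 0 in every library, among them TYROBP, LYZ and CD3E, PTPRC held at most 2 counts, and the summed level of the list was 20.8 to 25.5 CPM in PBS and 19.0 to 26.8 CPM in ADC, most of it LAPTM5. LAPTM5 and CSF1R were the leukocyte markers with enough counts to test, and with edgeR neither was called (21.6 to 20.2 CPM and 1.26 to 2.10 CPM from PBS to ADC), while limma-voom called 1 of them higher. TYR was at 0 throughout, and the 5 melanocyte markers together reached at most 0.988 CPM. The 5 osteoclast markers summed to 9.23 to 13.8 CPM in PBS and 7.93 to 10.4 CPM in ADC, nearly all of it TNFRSF11A. The 1 osteoclast marker tested was not called with edgeR (log2 fold change -0.24). It was lower at an unadjusted p under 0.05 with edgeR, DESeq2 and limma-voom, but not with scaling to library size alone. In bulk RNA, fewer cells with a transcript and less of it per cell cannot be told apart.

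TFEB, TFE3 and MITF are related helix-loop-helix factors that bind E-boxes upstream of lysosomal genes, in an element known as the CLEAR motif, whose core is CACGTG. Their own RNA levels, and the sequences upstream of the genes they are known to act on, are therefore given first. Promoter sequences from RefSeq (GRCh38.p14), running from 250 bases before to 50 bases after the first listed transcription start, were present for 30 of the 42 genes. The core CACGTG, which reads the same on both strands, occurred in 10 of these 30 promoters (33.3%), against 2030 of 27305 promoters of all genes in the table (7.43%). Among genes that passed the count filter it was present in 9 of 28 lysosomal promoters and in 10.1% of 10054 promoters. The full palindrome, which is this core with GT before it and AC after it, occurred in 2 of 30 (6.67%), those of GAA and MCOLN1, against 0.381% of all promoters. Among genes that passed the count filter it was in 2 of 28 lysosomal promoters and 0.806% of 10054 promoters. The M-box TCATGTG, a site known for MITF and TFE3 and searched on both strands, occurred in 4 of 30 (13.3%), those of CD63, CTSA, SCARB2 and TPP1, against 2.99%. After the count filter the M-box was in 4 of 28 lysosomal promoters and 1.70% of 10054 promoters. These shares describe letters in a window, and no binding was measured.

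The following stretches hold CACGTG cores, in capitals, in the promoters of the 3 genes that have one and passed the test between groups (LAMP1, NEU1 and GAA) and of 3 that have one and did not (MCOLN1, CTSA and CTSD). All are written 5′ to 3′ on the strand of the gene, and the first and last base are given relative to the start site. LAMP1 is shown from −207 to −8 (chr13:113297032-113297231, plus strand) and carries 5 of the 6 cores of its window there. GAA is shown from −91 to −11 (chr17:80101490-80101570, plus strand), with 2 cores that both lie inside the full palindrome. NEU1 runs from −141 to −106 (chr6:31862927-31862962, minus strand), MCOLN1 from −56 to −1 (chr19:7522568-7522623, plus strand), CTSA from −57 to −5 (chr20:45891278-45891330, plus strand) and CTSD from −62 to −27 (chr11:1763954-1763989, minus strand).
LAMP1: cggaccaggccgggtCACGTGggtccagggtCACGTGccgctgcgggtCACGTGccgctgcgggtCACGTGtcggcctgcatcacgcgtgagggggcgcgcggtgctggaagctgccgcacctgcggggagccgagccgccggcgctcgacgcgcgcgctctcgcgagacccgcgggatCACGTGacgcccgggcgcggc
GAA: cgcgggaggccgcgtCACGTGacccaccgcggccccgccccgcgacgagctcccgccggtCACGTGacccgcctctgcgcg
NEU1: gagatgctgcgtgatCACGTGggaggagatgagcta
MCOLN1: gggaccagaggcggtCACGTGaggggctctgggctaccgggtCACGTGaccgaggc
CTSA: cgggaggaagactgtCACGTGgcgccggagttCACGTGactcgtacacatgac
CTSD: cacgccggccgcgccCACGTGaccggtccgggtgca
LAMP1 had 6 cores in its window, while NEU1 and CTSD had 1 each. Of the 9 tested genes with the core, 1 was called higher after ADC, 2 lower and 6 were not called. Of the 19 tested genes with a promoter in the table and no core, 2 were called higher, 3 lower and 14 were not called. Of all genes tested, 10.8% were called higher and 10% lower (20.8% in either direction), and with so few genes no result about the core is read from these counts. The calls of GAA, LAMP1 and NEU1 were each lost under several alternatives, given with each gene.

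None of the 3 transcription factor genes passed the test with edgeR, DESeq2 or limma-voom. At an unadjusted p under 0.05, 1 was higher (TFEB) and 1 lower (MITF), and with scaling to library size alone TFEB passed. TFE3 was the most abundant per length, with a PBS mean of 19.5 CPM per kilobase of exon, against 1.22 for MITF and 0.558 for TFEB. TFEB (chr6:41683978-41736259, hg38) stood at 1.55, 3.73, 3.07, 3.39 and 4.0 CPM in PBS replicates 1 to 5 and at 4.60, 3.17, 4.50, 5.08 and 5.08 CPM in ADC replicates 1 to 5. ADC replicate 2 lay among the PBS values, and PBS replicate 1 lay far below the others. The log2 fold change was 0.51 (SE 0.19), with an unadjusted 95% interval of 0.12 to 0.90 and an adjusted p of 0.058 (edgeR's quasi-likelihood test, Benjamini-Hochberg over all genes tested). Without PBS replicate 1 it was 0.33 with an adjusted p of 0.18, whereas leaving out PBS replicate 2, PBS replicate 5 or ADC replicate 2 gave adjusted p of 0.026 to 0.041. MITF, which drives pigment cell and osteoclast programmes, stood at 7.05, 9.10, 9.16, 10.1 and 8.39 CPM in PBS and at 6.25, 7.65, 7.60, 7.97 and 7.08 CPM in ADC. The groups overlapped through PBS replicate 1, the lowest of its group. Its log2 fold change was -0.26 (SE 0.11, adjusted p = 0.098), and without PBS replicate 1 the adjusted p was 0.037. TFE3 held 83.7, 84.8, 83.6, 82.4 and 82.2 CPM in PBS and 81.8, 76.9, 75.3, 84.5 and 81.3 CPM in ADC, overlapping ranges with a log2 fold change of -0.06 (SE 0.04, adjusted p = 0.32).

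At baseline the lysosomal genes spanned a wide range. Per kilobase of exon, prosaposin (PSAP), the precursor of the saposins that present sphingolipids to their hydrolases, was highest, with a PBS mean of 222.7 CPM per kilobase, at percentile 99.0 of all tested genes. The carboxypeptidase cathepsin Z (CTSZ) followed at 147.9, the tetraspanin CD63 at 106.9, LAMP1 at 94.9 and cathepsin B (CTSB) at 55.1 CPM per kilobase. These 5 genes made up 49.7% of the counts of all 42. Below them came LAMP2 at 37.4, the beta-glucuronidase GUSB at 31.8 and the V-ATPase catalytic subunit ATP6V1A at 27.9 CPM per kilobase. The ranges over the 5 PBS libraries did not overlap between any neighbours in this order from PSAP down to TPP1 (25.5 CPM per kilobase), and then overlapped from TPP1 through CTSL, GLB1, ATP6V1H, CTSD, CTSA, GLA and CTSC to TFE3. Over the whole order, 17 of 41 neighbouring pairs had ranges apart.

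The low end held genes tied to other cell types and several near the detection floor. Cathepsin S (CTSS), the cathepsin of antigen-presenting cells, stood at 0.569 CPM per kilobase, cathepsin K (CTSK), the collagenase of osteoclasts, at 0.139 and cathepsin F (CTSF) at 0.130. Acid alpha-glucosidase (GAA), which degrades glycogen, was at 0.0475, cathepsin H (CTSH) at 0.0479 and the membrane protein CLN3 at 0.0119 CPM per kilobase. CLN3 shares 30.9% of its exonic bases with other annotated genes, 25.2% on the same strand. How reads there were assigned is not given, so the level of CLN3 is less certain. CTSH, CTSK and CLN3 were the genes left out of the test, with 0 to 20, 2 to 15 and 0 to 9 counts per PBS library and 3 to 21, 2 to 19 and 3 to 9 counts per ADC library. In all, 29 of the 42 genes lay above the median per-kilobase level of tested genes and 6 above the 90th percentile. Gene length was the union of exons, which weighs against genes with long rare exons. With the median length of coding transcripts instead, a choice made after the values were seen, CD63 came first at 341.3 CPM per kilobase, ahead of PSAP at 254.9 and CTSB at 203.7, and CTSC moved from rank 16 to rank 6.

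**Figure D1:**
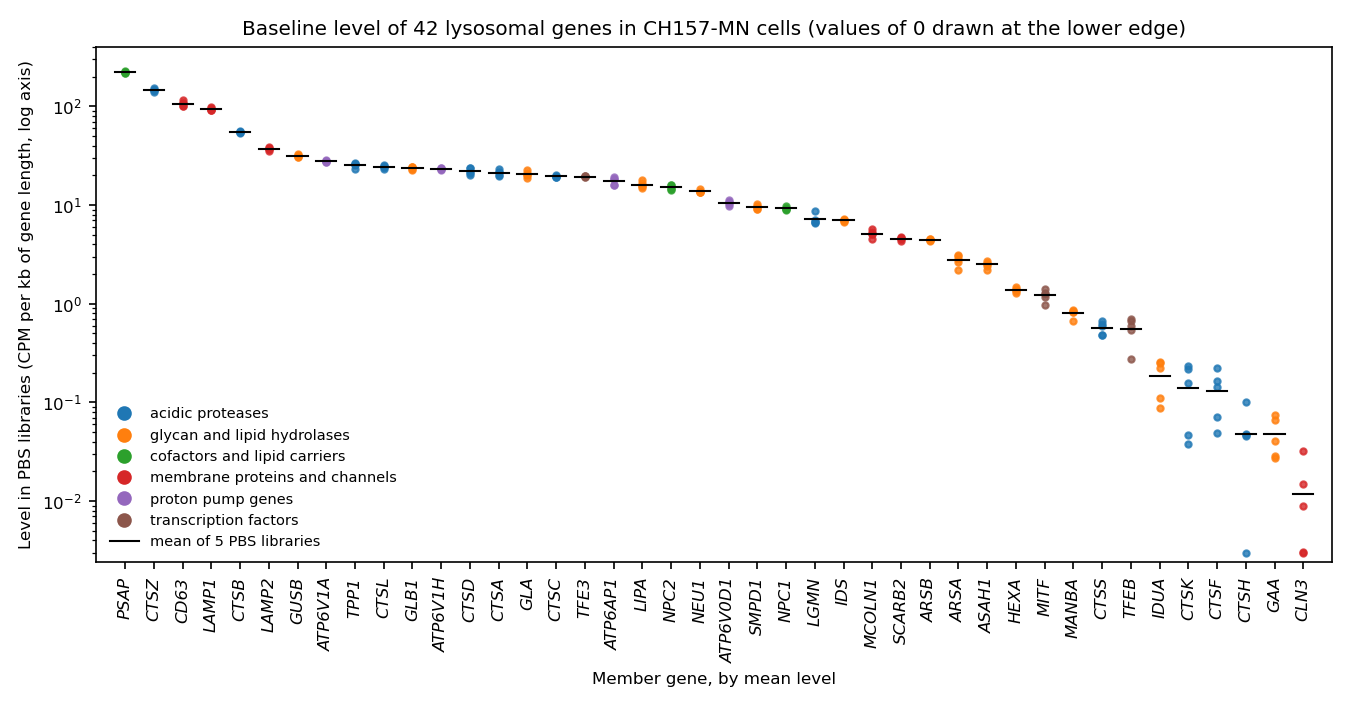
Level of each of the 42 lysosomal genes in the 5 PBS libraries, in CPM per kilobase of exon on a log axis, ordered by the mean (bar) and coloured by role, with each point 1 library. PSAP, CTSZ and CD63 stand highest with little spread, and the spread widens among genes with few counts such as CLN3 and CTSH.

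The comparison of ADC with PBS cells asks whether the transcripts of these lysosomal genes differed after treatment. Uptake of the conjugate and its delivery to lysosomes were not measured in these libraries. Of the 39 tested genes, 11 were called at an adjusted p of at most 0.05, which is 28.2%, against 20.8% of the 14504 genes tested. Of the 39, 5 were called higher (12.8%, against 10.8% of all genes) and 6 were called lower (15.4%, against 10%). Of the 5 called higher, GAA passed the filter on low counts largely through the ADC libraries. PBS and ADC ranges were apart for 3 higher genes and 5 lower ones, 20.5% of the 39, against 14.2% of all genes tested (7.29% higher and 6.95% lower). No result about the set as a whole is read from these shares. The median log2 fold change of the 39 was 0.0028, beside -0.0022 over all genes tested. With scaling to library size alone, 6 were called higher and 4 lower, and over all genes 1835 higher and 1063 lower in place of 1562 and 1456. Differences were small: the 10 called genes with a mean of at least 5 CPM had log2 fold changes from -0.28 to 0.19, or 0.823-fold to 1.14-fold. For the 24 uncalled genes at that level, the 95% intervals lay within -0.49 and 0.35 on the log2 scale.

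**Figure D2:**
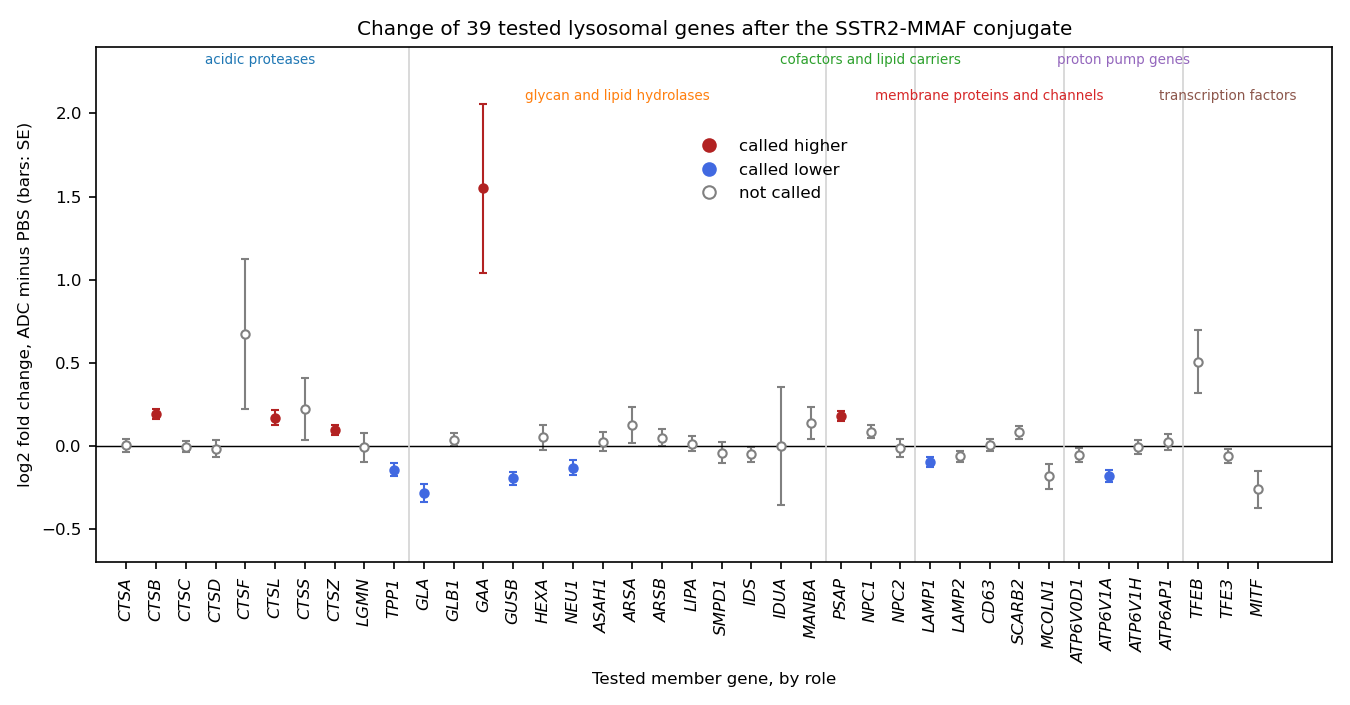
Log2 fold change of ADC over PBS for the 39 tested lysosomal genes, grouped by role, with bars of 1 SE. Filled points passed the test (5 higher, 6 lower), and all of them except GAA lie between -0.28 and 0.19.

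Among the acidic proteases, 3 of 10 tested genes rose, 1 fell and 6 did not pass (40% called, against 20.8% of all genes tested). With so few genes, no result about a role is read from its count, here or in the roles below. All 3 proteases that rose were cathepsins with high or moderate levels. CTSB (ENSG00000164733, chr8:11842524-11869448), a cysteine protease that cleaves dipeptide linkers, stood at 404, 415, 406, 412 and 410 CPM in PBS replicates 1 to 5 and at 458, 464, 470, 462 and 485 CPM in ADC replicates 1 to 5. Every ADC library lay above every PBS library. The mean went from 409 ± 4.23 to 468 ± 10.4 CPM (SD, n = 5 per group), a log2 fold change of 0.19 (SE 0.03, adjusted p = 1.1e-05, edgeR), which is 1.14-fold and the smallest adjusted p of the 39. CTSL (chr9:87725519-87731393), the endopeptidase cathepsin L, held 57.9, 54.6, 57.5, 60.5 and 59.1 CPM in PBS and 62.1, 66.1, 64.6, 63.1 and 69.9 CPM in ADC. Its groups were also apart, with a log2 fold change of 0.17 (SE 0.05, adjusted p = 0.0076). CTSZ (chr20:58995185-59007247) held 288, 316, 299, 302 and 302 CPM in PBS and 324, 311, 331, 312 and 331 CPM in ADC. Here PBS replicate 2 lay above ADC replicates 2 and 4, so the groups overlapped. CTSZ differed by a log2 fold change of 0.10 (SE 0.03, adjusted p = 0.032), and the adjusted p was 0.054 to 0.10 without PBS replicate 1, 3, 4 or 5 or ADC replicate 1, 3 or 5, and 0.060 without the filter on low counts.

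TPP1 (chr11:6612763-6619485), the tripeptidyl peptidase lost in a form of Batten disease, was the 1 protease that fell. It held 171, 173, 151, 168 and 170 CPM in PBS and 155, 142, 157, 146 and 156 CPM in ADC. PBS replicate 3 lay among the ADC values and the other 4 above all of them. The log2 fold change was -0.14 (SE 0.04, adjusted p = 0.0084). Of its exonic bases 14.4% are shared with other annotated genes, all of which were at 0 counts. The aspartic protease cathepsin D (CTSD) and the amino-dipeptidase cathepsin C (CTSC) had log2 fold changes of -0.02 (SE 0.05) and -0.00 (SE 0.03). Legumain (LGMN), which trims the cathepsins to their mature forms, had -0.01 (SE 0.09). CTSA, the protective protein that holds GLB1 and NEU1 in a complex, had 0.00 (SE 0.04). CTSD shares 52.7% of its exonic bases with other annotated genes, which held at most 16 counts per library. CTSA shares 28.5%, all on the other strand. PLTP, at 1197 to 2252 counts, covers 3.42% of the exonic bases of CTSA, and NEURL2, at 1 to 17 counts, covers 17.7%. For CTSD, 41.7% of the exonic bases are shared on the same strand and 15.8% on the other. A strand setting could not separate the genes on the same strand. Whether strand was used in counting is not given either, so the values of CTSD and CTSA, at baseline too, are less certain. CTSF, at 4 to 32 counts, and CTSS had larger and wider values, 0.67 (SE 0.45) and 0.22 (SE 0.19). Summed over the 12 proteases, the level was 1351 to 1425 CPM in PBS and 1422 to 1503 CPM in ADC.

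**Figure D3:**
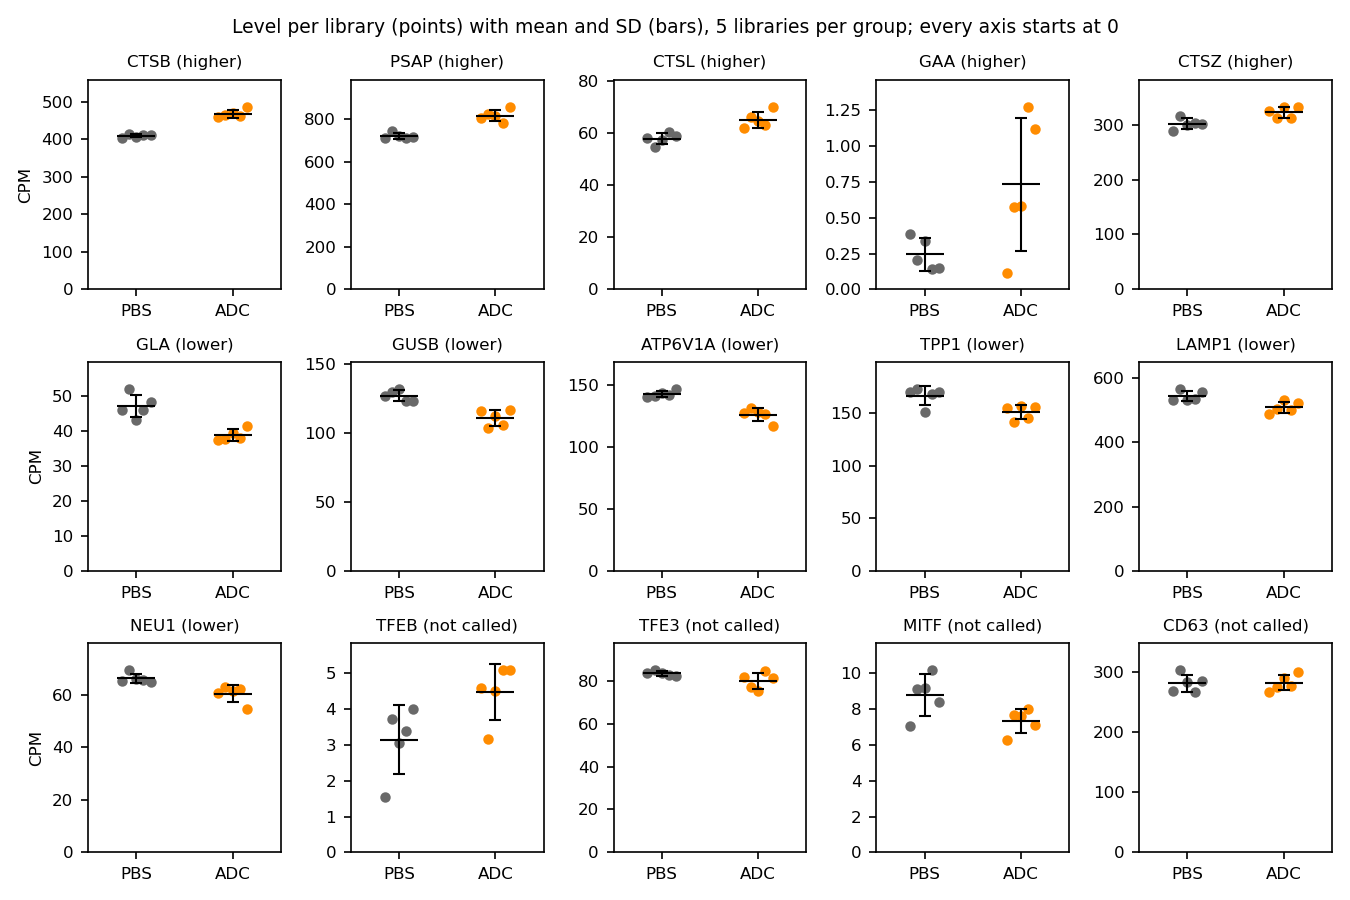
CPM in each library for the 11 called genes, TFEB, TFE3, MITF and CD63, with the mean and SD over 5 libraries per group and every axis from 0. CTSB and PSAP show ADC points above all PBS points, GLA and GUSB show them below, and GAA has points from 0.116 to 1.27 CPM in ADC.

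Of the 14 glycan and lipid hydrolases, 1 was called higher, 3 fell and 10 did not pass (28.6% called, against 20.8% of all genes tested). GLA (chrX:101397803-101408012), the alpha-galactosidase deficient in Fabry disease, stood at 46.0, 52.0, 43.2, 46.0 and 48.1 CPM in PBS and at 37.3, 37.5, 39.5, 38.1 and 41.4 CPM in ADC. All ADC values lay below all PBS values, with a log2 fold change of -0.28 (SE 0.05, adjusted p = 0.00033). GUSB (chr7:65960684-65982314) held 127, 129, 132, 123 and 123 CPM in PBS and 116, 104, 112, 106 and 116 CPM in ADC. It too was apart, at -0.20 (SE 0.04, adjusted p = 0.00043). GUSB is often used as a reference gene in quantitative PCR. NEU1 (chr6:31857659-31862906), the sialidase, held 65.4, 69.4, 66.1, 65.6 and 64.9 CPM in PBS and 60.6, 63.2, 61.4, 62.3 and 54.7 CPM in ADC. The gap between the groups was narrow, and the log2 fold change was -0.13 (SE 0.05, adjusted p = 0.038). That call was lost without any 1 of the 5 PBS replicates or without ADC replicate 1, 3 or 5 (adjusted p of 0.051 to 0.12), and with scaling to library size alone (0.096).

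GAA (chr17:80101556-80119879) had the largest fold change of the called genes and the fewest counts. It stood at 0.387, 0.207, 0.341, 0.141 and 0.147 CPM in PBS and at 0.116, 0.574, 0.585, 1.27 and 1.12 CPM in ADC, or 4 to 13 and 4 to 37 counts per library. ADC replicate 1 was below every PBS library and the other 4 above every PBS library. Its log2 fold change was 1.55 (SE 0.51, adjusted p = 0.029). With PBS counts around the filter's minimum of 10, GAA passed the filter on low counts largely through the ADC libraries. Its call is therefore not independent of that filter, and without the filter the adjusted p was 0.027. The adjusted p was 0.055 to 0.11 without PBS replicate 2, 4 or 5 or ADC replicate 4 or 5, and 0.14 with limma-voom. The hydrolases that were not called included GLB1, the beta-galactosidase, at 0.04 (SE 0.04), HEXA at 0.05 (SE 0.07), the acid ceramidase ASAH1 at 0.03 (SE 0.06), the cholesteryl ester hydrolase LIPA at 0.01 (SE 0.05) and the sphingomyelinase SMPD1 at -0.04 (SE 0.06). The sulfatases ARSA, ARSB and IDS stood at 0.12, 0.05 and -0.05, and MANBA at 0.14 (SE 0.10). IDUA, with 10 to 34 counts per library, could not be placed more closely than -0.00 (SE 0.35). HEXA, IDS and IDUA share 16.3%, 17.4% and 13.4% of their exonic bases with other annotated genes, so reads there may belong to either. Summed over the 14 genes the level was 611 to 639 CPM in PBS and 596 to 610 CPM in ADC.

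Of the 3 cofactors and lipid carriers, PSAP rose (33.3% called, against 20.8% of all genes tested). PSAP (ENSG00000197746, chr10:71816298-71851375) stood at 713, 745, 721, 713 and 715 CPM in PBS and at 807, 824, 816, 784 and 856 CPM in ADC. Every ADC library was above every PBS library, and the mean went from 721 ± 13.9 to 817 ± 26.4 CPM (SD, n = 5 per group). The log2 fold change was 0.18 (SE 0.03, adjusted p = 4.0e-05, edgeR). The partner proteins of cholesterol export, NPC1 in the membrane and NPC2 in the lumen, were not called, at 0.09 (SE 0.04, adjusted p = 0.13) and -0.01 (SE 0.05). NPC1 reached an adjusted p of 0.0499 without ADC replicate 5.

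Of 5 tested membrane proteins and channels, LAMP1 fell and 4 did not pass (20% called, against 20.8% of all genes tested). LAMP1 (ENSG00000185896, chr13:113297241-113323672) held 533, 567, 532, 534 and 557 CPM in PBS and 490, 504, 531, 501 and 522 CPM in ADC. The groups were only just apart, between PBS replicate 3 and ADC replicate 3. LAMP1 had a log2 fold change of -0.10 (SE 0.03, adjusted p = 0.028), with an adjusted p of 0.058 to 0.084 without PBS replicate 2 or 5 or ADC replicate 1, 2 or 4, and of 0.074 with scaling to library size alone. CD63 held 268, 303, 284, 267 and 285 CPM in PBS and 268, 276, 291, 278 and 301 CPM in ADC. These ranges nearly coincided, and the 95% interval of its log2 fold change ran from -0.07 to 0.08 (adjusted p = 0.93). LAMP2, the receptor of chaperone-mediated autophagy in 1 of its isoforms, had -0.06 (SE 0.03, adjusted p = 0.21) and the glucocerebrosidase receptor SCARB2 had 0.08 (SE 0.04, adjusted p = 0.16). MCOLN1, the calcium channel that signals to TFEB through calcineurin, went from 20.4 ± 1.74 to 17.9 ± 0.89 CPM (SD, n = 5 per group), a log2 fold change of -0.18 (SE 0.08, adjusted p = 0.089, edgeR), and without PBS replicate 1 its adjusted p was 0.035.

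Among the 4 proton pump genes ATP6V1A fell and 3 did not pass (25% called, against 20.8% of all genes tested). ATP6V1A (chr3:113747019-113812056), which holds the site of ATP hydrolysis, stood at 141, 142, 144, 142 and 147 CPM in PBS and at 127, 132, 128, 127 and 117 CPM in ADC. All ADC values were below all PBS values, with ADC replicate 5 lowest. The log2 fold change was -0.18 (SE 0.04, adjusted p = 0.00044). ATP6V0D1, ATP6V1H and the accessory protein ATP6AP1 stood at -0.05 (SE 0.04), -0.01 (SE 0.04) and 0.02 (SE 0.05).

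Further genes of the same pathway were read as lists, with nothing read as particular to a list from its counts, in which up to 3 genes with the smallest adjusted p in each direction are named. Of 36 tested lysosomal enzymes outside the 42, 6 were called higher and 4 lower (27.8% called, against 20.8% of all genes tested), with a median log2 fold change of -0.0068. The heparan sulfate enzymes NAGLU and SGSH rose by 0.33 (SE 0.08, adjusted p = 0.0015) and 0.23 (SE 0.06, adjusted p = 0.0075) on the log2 scale, and the fucosidase FUCA1 by 0.80 (SE 0.22, adjusted p = 0.0085). The palmitoyl thioesterase PPT1 (log2 fold change -0.18) and EPDR1 (-0.50) fell, with adjusted p of 0.00022 and 0.00087. Of 28 tested membrane proteins and transporters outside the 42, 4 were called higher and 3 lower (25% called). The endolysosomal channels TPCN1 and TPCN2 rose by 0.36 (adjusted p = 2.1e-06) and 0.28 (adjusted p = 0.024) and the transporter ATP13A2 by 0.16 (adjusted p = 0.014) on the log2 scale. LAPTM4B, TMEM192 and the amino acid exporter SLC36A1 fell, at -0.16, -0.32 and -0.34 (adjusted p = 0.0002, 0.00031 and 0.0005). SLC46A3, named here for its known part in carrying some antibody-conjugate catabolites out of lysosomes, was not called, at 2.25 CPM in PBS, 2.03 CPM in ADC and a log2 fold change of -0.15 (SE 0.21, adjusted p = 0.68).

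Of 16 further proton pump genes tested with edgeR, 3 fell (18.8%, against 10% of all genes called lower) and 0 were called higher (against 10.8%), with a median log2 fold change of -0.081. The share called in either direction, 18.8%, was below the 20.8% of all genes tested. At an unadjusted p under 0.05, 5 were lower and 1 higher, DESeq2 called 3 lower and 1 higher, limma-voom 2 and 0, and scaling to library size alone gave 2 lower and 1 higher. ATP6V1D had a log2 fold change of -0.20 (SE 0.03, adjusted p = 6.5e-05), ATP6V1B2 of -0.16 (adjusted p = 0.0054) and ATP6V0B of -0.13 (adjusted p = 0.048). ATP6V1D and ATP6V1B2 belong, with ATP6V1A, to the cytosolic V1 sector. So does ATP6V1H, which was not called (log2 fold change -0.01), and nothing is read about the sector. In the list of mannose 6-phosphate tagging and sorting, 2 of 18 tested genes rose and 3 fell (27.8% called). The cation-dependent receptor M6PR went from 246 to 209 CPM, a log2 fold change of -0.24 (SE 0.03, adjusted p = 1.0e-06), and the adaptor subunits AP1G1 and AP3M1 fell too (-0.15 and -0.14), while GGA1 and AP1S1 rose (0.26 and 0.14). The other receptor, IGF2R, was not called at 373 CPM in PBS and 370 CPM in ADC.

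Of 8 cystatin genes, whose products inhibit cysteine cathepsins, only CSTB and CST3 could be tested, and neither was called with edgeR, DESeq2 or limma-voom or passed an unadjusted p of 0.05, at log2 fold changes of -0.04 each (SE 0.04 and 0.05). Among 18 tested genes of the nutrient-sensing machinery that controls TFEB, the Ragulator subunit LAMTOR2 rose (0.28, adjusted p = 0.012), FNIP2 and the calcineurin subunit PPP3R1 fell (-0.25 and -0.13) and 15 did not pass (16.7% called). Of 29 tested autophagy genes, 4 rose and 1 fell, with a median log2 fold change of 0.065, and with scaling to library size alone 7 rose and 1 fell. The 5 called were 17.2% of the list, below the 20.8% of all genes tested. By direction, 13.8% were called higher (against 10.8% of all genes tested) and 3.45% lower (against 10%). At an unadjusted p under 0.05 with edgeR, 10 were higher and 1 lower. No result about the list is read from these counts. The mitophagy receptor OPTN went from 49.3 to 69.2 CPM (log2 fold change 0.49, SE 0.05, adjusted p = 4.6e-08). GABARAPL1, ULK1 and WIPI1 rose by 0.36, 0.33 and 0.50 on the log2 scale and ATG3 fell by 0.15.

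**Figure D4:**
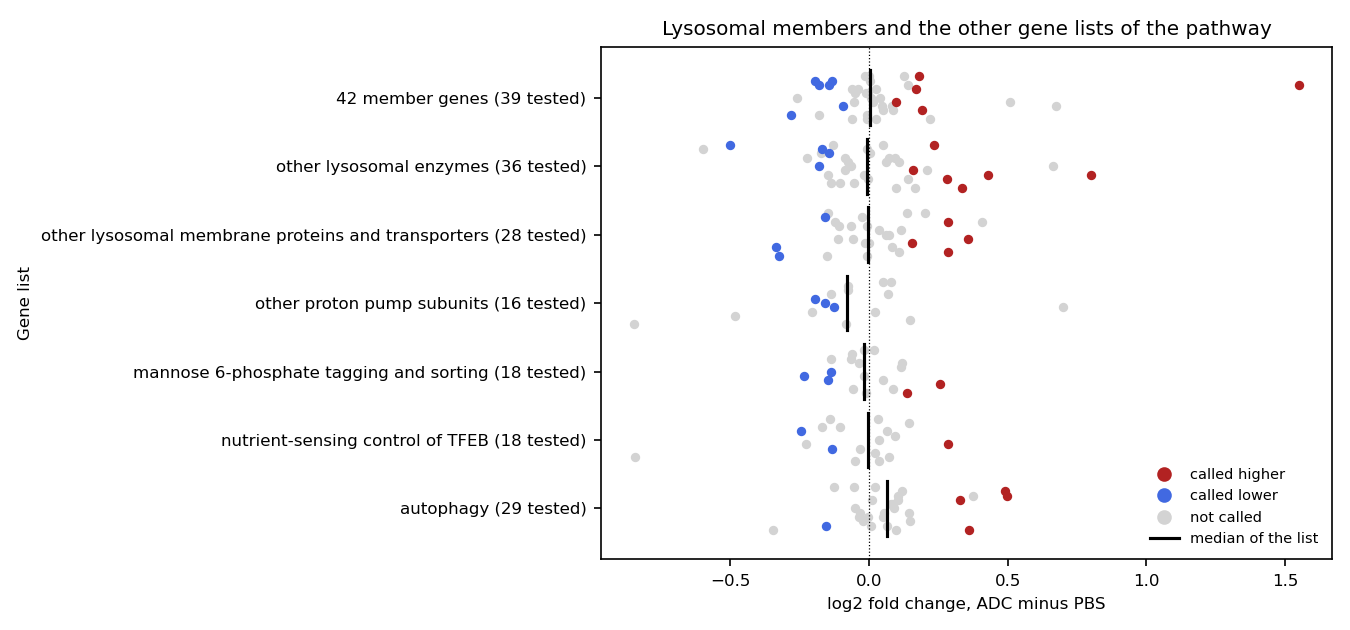
Log2 fold change of ADC over PBS for each tested gene of the 42 and of 6 further lists of the pathway, with the median of each list as a bar. Called genes lie on both sides of 0 in every list but the 16 further proton pump genes (3 lower and 0 higher with edgeR, 2 and 1 with scaling to library size alone), and each median lies between -0.081 and 0.065.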

How the data were processed

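The authors deposited 1 table of raw read counts per gene for 10 bulk RNA-seq libraries. Per the submitters' processing notes, HISAT2, HISAT, TopHat2 and hg38 were named without roles. For the counting program, its strand setting and its gene models, the sources used here give nothing. All value columns were matched to a sample (0 unmatched). CPM values used TMM-scaled library sizes. Groups were compared with edgeR 4.0.16 (quasi-likelihood test, R 4.3.3) on genes kept by filterByExpr (minimum count 10, minimum total 15), with Benjamini-Hochberg adjustment over all 14504 genes tested, a call at an adjusted p of at most 0.05, and no covariate. The procedure was run on simulated data with 200 changed genes, fewer than the 3018 called here, and no support for single calls is drawn from that. Alternatives were DESeq2 1.42.0, limma-voom 3.58.1, library size alone, no filter, a mean of at least 1 CPM, halved counts, a replicate block and leaving out each library. Even counts made up 65.4% to 67.3% of low counts (2 to 21) against 49.0% to 50.6% of counts from 1000 up, so counts were also halved. Full values are given for the 3 transcription factors, the called genes with the smallest adjusted p (up to 12), and the 3 highest per length in PBS. In the further lists the 3 called genes with the smallest adjusted p in each direction are named, except 1 that is not reported here, and other names there (SLC46A3, IGF2R, and uncalled genes) were added after values were seen. The 42 genes and all lists were chosen with earlier results of these data known. The precision at these depths was a biological coefficient of variation of 7.60% across all genes, and a median of 4.12% across PBS libraries for tested lysosomal genes at 5 CPM or more.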

Additional observations from a re-analysis of the deposited data

Results flagged for a closer look

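In 8 of 84 groups of 5 libraries, 1 library stood apart from its nearest neighbour by more than 0.71 of the whole range of the group, a gap that chance gives in about 1 in 20 groups. PBS replicate 2 was highest for PSAP (745 CPM, next 721), NEU1 (69.4 CPM, next 66.1) and LGMN (34.3 CPM, next 27.4). PBS replicate 3 was lowest for TPP1 (151 CPM, next 168) and MANBA (7.80 CPM, next 9.63). ADC replicate 5 was highest for CTSD (75.2 CPM, next 68.3), SMPD1 (28.5 CPM, next 25.5) and CTSH (0.736 CPM, next 0.260), the last at few counts.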

How the results depend on the processing

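Over 17 alternatives the number of genes called ranged from 2491 to 3351, against 3018, and of the lysosomal genes 3 to 6 were called higher and 4 to 7 lower, against 5 and 6. The lowest count of higher calls, 3, came without PBS replicate 4, where CTSZ and GAA lost their calls. CTSB, CTSL, TPP1, GLA, GUSB, PSAP and ATP6V1A kept their calls in all 17. GAA was not tested with a mean of at least 1 CPM or with halved counts. The replicate numbers did not pair the libraries: same-numbered deviations correlated at -0.0072 to 0.040, and only ADC replicate 2 correlated best with its own number. With a replicate block 3152 genes were called and 5 and 6 lysosomal genes, GAA had an adjusted p of 0.075 and TFEB of 0.031. TFEB also passed with library size alone (0.049) and with no filter (0.036). No called gene changed sign. Uncalled genes did. With library size alone the log2 fold changes were 0.017 for CTSC, 0.0068 for CTSD, 0.014 for LGMN, 0.023 for IDUA, 0.010 for NPC2 and 0.013 for ATP6V1H. IDUA was at 4.5e-05 with DESeq2, 0.064 with limma-voom, 0.050 with the replicate block and 0.00080 with halved counts. Leaving out 1 library at a time gave -0.026 to 0.039 for CTSA, -0.013 to 0.0091 for CTSC, -0.049 to 0.013 for CTSD, -0.074 to 0.078 for LGMN, -0.014 to 0.054 for LIPA, -0.17 to 0.14 for IDUA, -0.031 to 0.018 for NPC2, -0.015 to 0.035 for CD63, -0.0076 to 0.057 for ATP6AP1, -0.015 to 0.059 for ASAH1 and -0.045 to 0.028 for ATP6V1H. The cause of these changes was not tested. Depth limits CTSF, GAA, IDUA and the 3 untested genes, of which CLN3 is also made less certain by its shared exons.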
